A study of Mus musculus with 10 samples.

Results

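Collagen chain genes were taken as the protein-coding genes of the mm10 gene table whose symbols match Col, a number, a and a number, which gave 44 of 21887 genes, for 27 collagen types on 15 chromosomes. By the structure of the proteins they encode, 11 were fibrillar chains, 6 were basement membrane chains of collagen IV, and 27 were other chains. CUT&Tag, in which a transposase tethered to an antibody cuts and tags the chromatin beneath it, had been used to map NPM1 (nucleophosmin), a nucleolar protein that also chaperones histones, and H3K4me3, the trimethyl mark found at active promoters. H3K4me3 peak lists came from Npm1-knockout (KO) and wild-type (WT) mouse cardiac macrophages, both from hearts at day 3 after myocardial infarction (MI). NPM1 peak lists came from WT cardiac macrophages of infarcted hearts and of sham-operated hearts (day 3), and from WT bone marrow-derived macrophages (BMDM). The BMDM were exposed for 12 hours to IL-4 (interleukin-4, 20 ng/ml) or left untreated. All BMDM had first been kept for 7 days in M-CSF at 50 ng/ml. The time listed for the untreated BMDM was 0 hours, so a difference in culture time was not separated from IL-4. The knockout is conditional, and the sources used here do not give its driver, the number of animals or how cardiac macrophages were purified. The other 4 libraries of the series were not analysed here. With 1 library in each group, differences are reported without tests or p-values, and none could be checked on a replicate.

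Collagens are trimeric proteins of the extracellular matrix whose chains wind into a triple helix built from glycine-rich repeats. Fibrillar chains form the banded fibres that give tissue its tensile strength, and collagens I and III make up most of the scar that replaces dead heart muscle. Collagen IV chains form the sheet-like network of basement membranes under endothelium and around muscle cells. Fibroblasts are the main source of fibrillar collagen in the heart, and macrophages are better known for taking up and degrading collagen, although they also express some collagen genes.

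The 4 NPM1 lists held 79893 (MI), 58011 (sham), 104514 (IL-4) and 58989 (untreated) peaks, and the H3K4me3 lists 52977 (KO) and 73321 (WT). The genome-wide background, in reads piled up per position and read back from the peak values, was 3.03 for MI and 1.29 for sham, 4.18 for IL-4 and 1.31 for untreated, and 2.49 for KO and 2.92 for WT, so the libraries of a pair differed in depth by factors of 2.35, 3.19 and 0.853. A gene-end peak is a peak that touches the window reaching 1 kb to each side of a gene's start or end. The fold (enrichment over local background) and −log10 q of a peak were set by the authors' peak caller and rank it within its own list, and a missing peak says only that none was called in that library. Unless a peak is said to lie inside a gene, the peaks below are gene-end peaks. Npm1 itself had an H3K4me3 gene-end peak in the KO list (fold 7.97) and in the WT list (fold 7.60), a promoter mark that does not check the deletion. Of 12 macrophage marker genes, 12 had an H3K4me3 gene-end peak in KO (61.8% of all genes) and 10 in WT (57.1% of all genes).

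The promoters on which the results turn are shown first. The 250 bases before the listed start site are given from RefSeq (GRCm38.p6), read along the strand of the gene, with CpG dinucleotides in capitals because H3K4me3 peaks are commonest at CpG-rich promoters. Col4a1 (chr8:11312827-11313076, minus strand) and Col4a2 (chr8:11312555-11312804, plus strand) encode the partner chains of the main basement membrane collagen and start 21 bp apart in opposite directions. Col1a2 (chr6:4505368-4505617, plus) and Col3a1 (chr1:45311288-45311537, plus) encode chains of the main scar collagens. Col23a1 (chr11:51289670-51289919, plus) and Col19a1 (chr1:24587438-24587687, minus) carried the H3K4me3 gene-end peaks of highest fold among the collagens in KO. Col10a1 (chr10:34389731-34389980, plus) had no peak within 2 kb of its ends in any list.
Col4a1: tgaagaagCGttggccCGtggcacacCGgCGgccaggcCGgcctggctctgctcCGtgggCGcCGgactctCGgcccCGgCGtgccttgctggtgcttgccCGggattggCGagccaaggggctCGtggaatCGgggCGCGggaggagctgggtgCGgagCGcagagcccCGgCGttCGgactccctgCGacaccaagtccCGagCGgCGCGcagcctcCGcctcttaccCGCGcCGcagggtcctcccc
Col4a2: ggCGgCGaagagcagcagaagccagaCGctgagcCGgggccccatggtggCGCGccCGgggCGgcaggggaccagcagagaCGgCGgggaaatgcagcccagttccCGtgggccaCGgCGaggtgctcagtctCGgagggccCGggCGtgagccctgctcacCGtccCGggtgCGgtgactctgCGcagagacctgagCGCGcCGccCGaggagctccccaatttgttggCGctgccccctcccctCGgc
Col1a2: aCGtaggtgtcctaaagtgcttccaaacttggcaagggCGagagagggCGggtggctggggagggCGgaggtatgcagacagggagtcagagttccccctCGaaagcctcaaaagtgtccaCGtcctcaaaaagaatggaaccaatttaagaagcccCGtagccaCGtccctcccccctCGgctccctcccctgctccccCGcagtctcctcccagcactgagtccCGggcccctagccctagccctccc
Col3a1: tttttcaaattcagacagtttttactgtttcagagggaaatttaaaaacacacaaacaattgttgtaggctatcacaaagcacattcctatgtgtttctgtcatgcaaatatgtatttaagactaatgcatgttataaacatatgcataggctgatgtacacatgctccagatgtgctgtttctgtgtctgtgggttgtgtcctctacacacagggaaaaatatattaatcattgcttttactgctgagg
Col23a1: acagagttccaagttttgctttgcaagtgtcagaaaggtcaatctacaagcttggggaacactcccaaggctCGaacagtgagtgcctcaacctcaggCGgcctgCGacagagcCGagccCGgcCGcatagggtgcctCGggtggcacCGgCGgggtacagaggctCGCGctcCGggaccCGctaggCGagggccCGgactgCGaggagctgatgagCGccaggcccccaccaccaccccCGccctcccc
Col19a1: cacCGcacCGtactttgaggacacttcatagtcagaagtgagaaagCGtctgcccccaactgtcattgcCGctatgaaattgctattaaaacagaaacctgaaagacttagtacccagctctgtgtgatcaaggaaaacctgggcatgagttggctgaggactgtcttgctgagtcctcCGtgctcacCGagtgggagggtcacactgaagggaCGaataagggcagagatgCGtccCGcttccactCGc
Col10a1: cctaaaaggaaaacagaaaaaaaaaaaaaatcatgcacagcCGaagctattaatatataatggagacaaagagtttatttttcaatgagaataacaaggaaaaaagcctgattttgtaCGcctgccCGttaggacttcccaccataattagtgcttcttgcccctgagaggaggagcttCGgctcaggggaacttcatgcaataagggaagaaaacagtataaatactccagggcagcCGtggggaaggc
The stretches of Col4a1 and Col4a2 hold 31 and 26 CpGs, that of Col23a1 18, Col1a2 11, Col19a1 10, Col10a1 5 and Col3a1 0.

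A smaller share of collagen genes than of all genes had a gene-end peak in the 2 H3K4me3 lists and in the NPM1 MI and IL-4 lists. H3K4me3 gene-end peaks were found at 19 of 44 collagen genes in KO, where 61.8% of all protein-coding genes had one, and at 12 in WT, where 57.1% had one. NPM1 gene-end peaks were found at 10 collagen genes in MI (50.6% of all genes) and at 6 in sham (10.9% of all genes). In BMDM, 9 collagen genes had an NPM1 gene-end peak with IL-4 (51.2% of all genes) and 1 did when untreated (6.71% of all genes). In the sham and untreated lists the collagen shares were 13.6% and 2.27%. With 6 genes and 1 gene called, these are too few to set apart from the shares of all genes. In the plot of the strongest peak per gene, the dots are densest in the KO column and nearly absent from the untreated column.

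**Figure D1:**
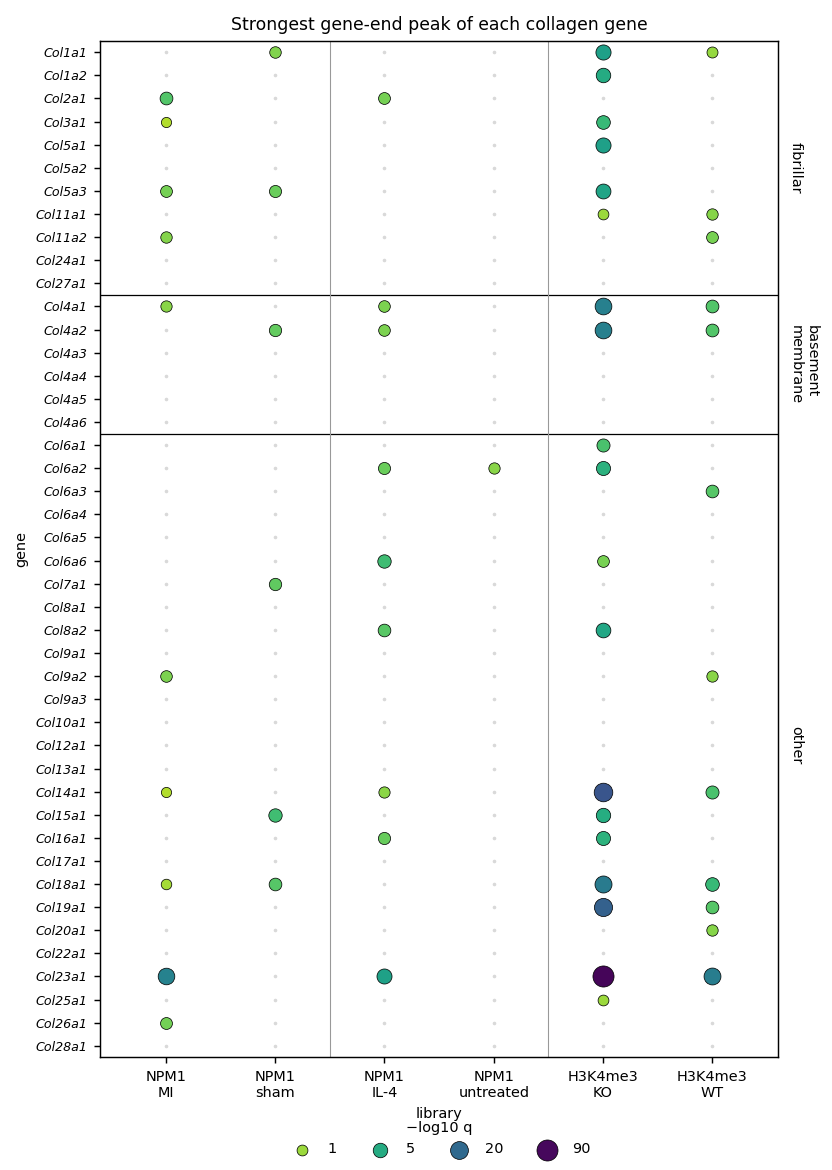
Strongest gene-end peak of each of the 44 collagen genes (rows, grouped by class) in each of the 6 libraries (columns), 1 library per group. Dot size and colour give the authors' −log10 q on a log scale, and small grey points mark genes with no gene-end peak; 19 genes have a dot in H3K4me3 KO and 12 in H3K4me3 WT.

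Most collagen gene-end peaks were weak. With −log10 q of 5 or more, 11 collagen genes were called in H3K4me3 KO (57.0% of all genes) and 1 in H3K4me3 WT (42.8% of all genes). The same limit left 1 collagen gene in NPM1 MI (27.9% of all genes), 0 in sham (0.681%), 1 in IL-4 (29.4%) and 0 in untreated (0.397%). The 1 gene of the WT, MI and IL-4 lists was Col23a1 each time, through a peak at its far end that also lies within 1 kb of an end of Phykpl, a neighbouring gene for an enzyme of hydroxylysine breakdown. Outside that shared peak, no collagen gene had an NPM1 gene-end peak of −log10 q of 5 or more. Deeper inside the collagen genes, such NPM1 peaks numbered 14 in MI and 14 in sham, and 26 with IL-4 and 12 untreated. H3K4me3 peaks of the same strength numbered 17 in KO and 15 in WT there. Some of these inside peaks recurred at the same place in every list, whichever antibody was used. The strongest inside peak of each list, in Col23a1, was among them. No share over all genes was computed for these counts.

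At 18 collagen genes (40.9%) no gene-end peak was called in any list, against 26.2% of all genes. They were the fibrillar chain genes Col5a2, Col24a1 and Col27a1, the collagen IV genes Col4a3, Col4a4, Col4a5 and Col4a6, and Col6a4, Col6a5, Col8a1, Col9a1, Col9a3, Col10a1, Col12a1, Col13a1, Col17a1, Col22a1 and Col28a1. Of these, 12 (27.3% of the collagen genes) had no base under a peak within 2 kb of either end in any list. Over all genes the share was 19.9%. The other 6 had peak bases between 1 and 2 kb from an end, such as Col17a1, whose chain sits in the hemidesmosomes of epithelia, with 528 bases in MI and 611 in sham. Col5a2, which encodes the second chain of the collagen V trimer that starts fibril assembly, was among the 12.

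The H3K4me3 lists compare promoter marking after infarction in cardiac macrophages labelled Npm1-KO and WT. A gene-end peak was called in KO only at 11 collagen genes (8.37% of all genes), in WT only at 4 (3.73% of all genes) and in both at 8 (53.4% of all genes). The KO-only genes were Col1a2, Col3a1, Col5a1, Col5a3, Col6a1, Col6a2, Col6a6, Col8a2, Col15a1, Col16a1 and Col25a1. The WT-only genes were Col6a3, Col9a2, Col11a2 and Col20a1, and the shared genes were Col1a1, Col4a1, Col4a2, Col11a1, Col14a1, Col18a1, Col19a1 and Col23a1. These sets changed with the setting. In a 2.5 kb window, Col5a1, Col5a3, Col8a2, Col15a1 and Col16a1 also had a WT peak. Col7a1, Col12a1 and Col26a1 were then KO-only, and Col4a4, Col6a3 and Col6a4 WT-only. Once weak peaks (−log10 q under 5) were dropped, Col1a2, Col5a1, Col5a3 and Col8a2 alone stayed KO-only from the main set. Shared genes other than Col11a1 and Col23a1 then became KO-only, and no gene was WT-only.

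Among fibrillar chains, 6 of 11 had a KO peak and 3 had a WT peak. Col1a2, which encodes the second chain of collagen I, had a single KO peak of 689 bp at its start site (chr6:4505430-4506118, fold 4.30, −log10 q 5.01) and no gene-end peak in the other 5 lists. Its summit pileup was 14 reads (95% exact Poisson interval 7.65 to 23.5, counting error only) over a local background of 2.49. Its partner Col1a1, the first chain of collagen I, had KO peaks of 428 bp (fold 3.94, −log10 q 6.46) and 417 bp (fold 3.01) at its lower-coordinate end, and in WT a peak of 200 bp (fold 2.62, −log10 q 1.09) at the other end. Counting Col1a1 as shared therefore rests on peaks at opposite ends of the gene. Col3a1, the single chain of collagen III, had a KO peak of 205 bp (fold 3.72, −log10 q 3.52) 149 bp past its start site and none in WT.

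Collagen V regulates the width of collagen I fibrils. Col5a1 had a KO peak of 804 bp over its start (fold 3.92, −log10 q 6.42) and one of 423 bp with its summit 1014 bp downstream (fold 3.60, −log10 q 5.15), and none in WT within 1 kb, where 333 peak bases lay within 2 kb. Col5a3 had a KO peak of 434 bp (fold 4.45, −log10 q 5.85) with its summit 78 bp from the start-site end and none in WT. Col11a1, a minor fibrillar chain of cartilage, had small peaks in both lists, 200 bp in KO (fold 2.58) and 217 bp in WT (fold 2.81), at the same place. Col11a2, its cartilage partner, had no gene-end peak in KO, where 77 peak bases lay within 2 kb, and in WT had peaks of 344 bp (fold 2.63) near its start, within 1 kb of an end of Rxrb, and of 252 bp (fold 2.13) at its far end. Col2a1, the cartilage fibril chain, had no H3K4me3 gene-end peak in either list, nor did Col24a1.

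Col27a1 had no gene-end peak because its listed start site lies inside the gene's outermost extent. Around that site (chr4:63215412) the KO list held a peak of 1355 bp (fold 5.28, −log10 q 16.7), and the WT list held peaks of 364 bp (fold 2.56, −log10 q 1.25) and 285 bp (fold 3.14, −log10 q 2.61). With windows at listed start sites, which are given for 35 collagen genes, 18 had a peak in KO (62.8% of all genes with a listed site) and 9 in WT (57.9%). The same windows held an NPM1 peak at 6 collagen genes in MI (49.6%) and at 4 with IL-4 (49.5%).

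Of the basement membrane chains, Col4a1 and Col4a2 were marked in both lists and the other 4 in neither. A single KO peak of 1276 bp (chr8:11311981-11313256, fold 4.66, −log10 q 12.6) spanned both start sites, and the WT peak there was 387 bp (chr8:11312469-11312855, fold 3.07, −log10 q 2.47). The summit pileup was 36 reads (25.2 to 49.8) in KO and 15 reads (8.40 to 24.7) in WT, over local backgrounds of 6.94 and 4.22. Because the genes share this promoter, they are 1 peak and not 2 observations. Col4a3, Col4a4, Col4a5 and Col4a6 encode the chains of the more restricted collagen IV networks, such as that of the kidney filter, and of these Col4a4 alone had H3K4me3 peak bases within 2 kb, 200 bases in WT.

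Among the other chains, 11 of 27 had a KO peak and 7 had a WT peak, and the strongest collagen promoters of both lists were here. Col23a1, a transmembrane collagen, had KO peaks of 645 bp (fold 9.37, −log10 q 42.2) and 630 bp (fold 5.01, −log10 q 13.3) at its start, where WT had peaks of 200 bp (fold 2.56, −log10 q 1.13) and 354 bp (fold 2.93, −log10 q 1.92). At its far end, in the region shared with Phykpl, KO had a peak of 1933 bp (fold 6.51, −log10 q 92.8) and WT one of 1065 bp (fold 5.35, −log10 q 13.5). Col25a1, another transmembrane collagen and the precursor of a component of amyloid plaques, had a KO peak of 200 bp (fold 2.58, −log10 q 0.985) and none in WT.

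The chains that sit on fibril surfaces, known as FACIT collagens, had a KO peak at 3 of 9 genes and a WT peak at 4. Col14a1, a FACIT chain that binds collagen I fibrils, had KO peaks of 1228 bp (fold 7.33, −log10 q 28.6) and 470 bp (fold 3.75, −log10 q 7.26), and a WT peak of 686 bp (fold 3.43, −log10 q 2.76) inside the span of the wider one. Col19a1, a chain of muscle and neural basement membrane zones, had a KO peak of 1259 bp (fold 8.52, −log10 q 23.2), covering the places of WT peaks of 447 bp (fold 3.32, −log10 q 2.37) and 229 bp (fold 2.81, −log10 q 1.31). Col16a1 had a KO peak of 788 bp (fold 3.60, −log10 q 4.23) over its start and none in WT. Col9a2 and Col20a1 were called in WT only, with −log10 q of 1.27 and 1.31 for their strongest peaks, and the Col20a1 peak also lay within 1 kb of an end of Arfgap1.

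Collagen VI forms beaded filaments around cells, and its 3 most widely made chains did not share a pattern. Col6a1 had KO peaks of 408 bp (fold 3.28, −log10 q 2.77) and 475 bp (fold 3.16, −log10 q 2.36), and Col6a2 had one of 859 bp (fold 4.01, −log10 q 4.25), with none in WT for either. Col6a3 had the reverse, no KO peak and a WT peak of 398 bp (fold 3.32, −log10 q 2.37) about 1 kb past its start. That gene was not called in WT with a 500 bp window or when the summit had to lie within 1 kb. With a 2.5 kb window it was called in WT and not in KO. Col6a6 had a small KO peak (fold 2.87, −log10 q 1.55), and Col6a4 and Col6a5 had none in either list. Of the multiplexins, which release anti-angiogenic fragments, Col18a1, the endostatin precursor, had a start-site peak of 853 bp in KO (fold 6.78, −log10 q 14.1) and of 294 bp in WT (fold 3.77, −log10 q 3.52). Col15a1 had KO peaks of 480 bp (fold 3.61, −log10 q 3.33) and 445 bp (fold 4.17, −log10 q 4.78) and no WT peak. Col8a2, a network-forming chain, had a KO peak of 894 bp (fold 3.96, −log10 q 5.45) and none in WT.

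Peak bases within 2 kb of either end summed over the 44 genes to 21226 in KO and 9905 in WT, means of 482 and 225 bases per gene. Over all protein-coding genes the means were 999 bases in KO and 579 in WT, and the whole lists covered 36.2 Mb and 28.3 Mb. The KO sum was thus 2.14 times the WT sum for collagen genes and 1.73 times for all genes. More bases were covered in KO at 21 collagen genes (62.6% of all genes) and fewer at 8 (7.59% of all genes). By class the mean was 468 bases in KO and 220 in WT for fibrillar chains, 495 and 237 for basement membrane chains, and 485 and 224 for other chains. The basement membrane means count the promoter shared by Col4a1 and Col4a2 for both genes. The median −log10 q of a gene's strongest gene-end peak was 86.6 in KO and 10.4 in WT over all called genes. For called collagen genes it was 5.45 and 2.37, so higher values in KO were not particular to collagen genes. Whether more marked cells or more mark per cell gave the wider peaks cannot be told apart in bulk samples. A difference between the libraries as a whole was not tested.

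**Figure D2:**
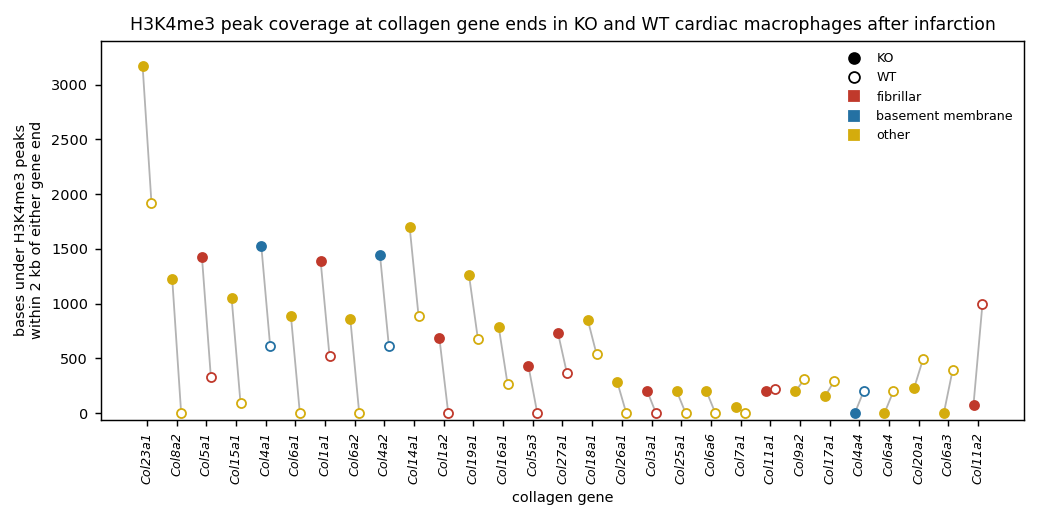
Bases under H3K4me3 peaks within 2 kb of either gene end for each collagen gene with any in KO (filled) or WT (open), 1 library each, coloured by class and ordered by the difference KO minus WT. 21 genes have more in KO, among them Col23a1 (3172 in KO, 1916 in WT), and 8 have fewer, among them Col11a2 (77 in KO, 992 in WT).

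The place of the H3K4me3 peaks was read at each end of the gene. Among the 35 collagen genes with a listed strand, 17 had a peak at the start-site end in KO (59.4% of all genes with a strand) and 9 in WT (54.3%). At the far end 1 collagen gene had a peak in KO (13.3% of all genes), the Col23a1 gene beside Phykpl, and 4 had one in WT (11.5%). Of the 25 collagen end peaks in KO, 8 overlapped a WT peak (73.9% of the end peaks of all genes), and of the 17 in WT, 9 overlapped a KO peak (88.3% of those of all genes). The KO peaks ranged from 200 to 1933 bp in width (median 480) and the WT peaks from 200 to 1065 bp (median 294), where the median peak of the whole list was 438 bp in KO and 290 bp in WT.

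**Figure D3:**
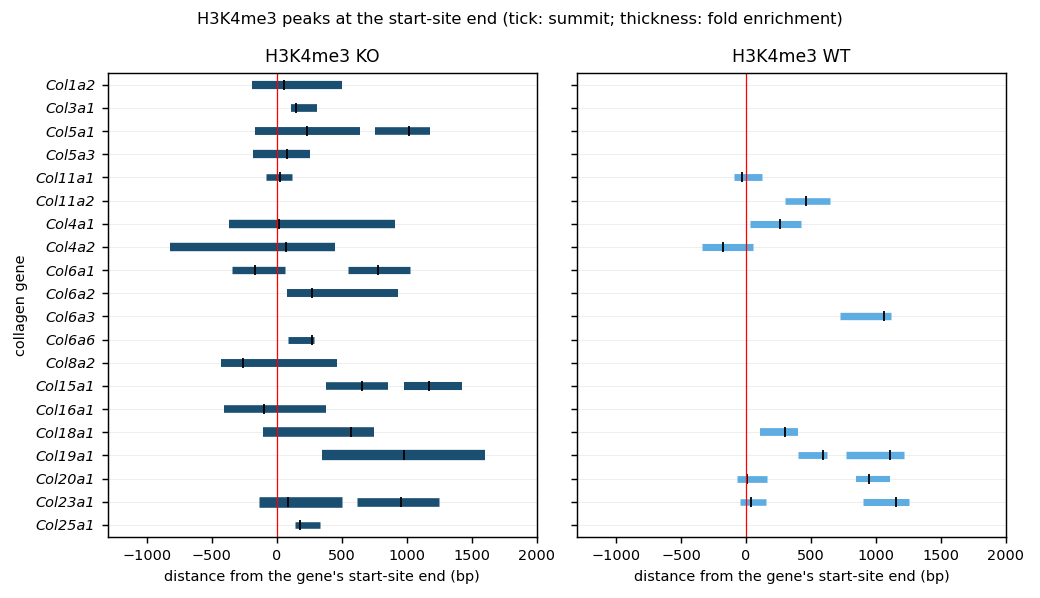
H3K4me3 peaks at the start-site end of the 20 collagen genes with a listed strand and such a peak in KO (left) or WT (right), as spans in bp from the annotated start-site end (red line), downstream to the right. Ticks mark summits and thickness follows the authors' fold enrichment; 17 genes have a span in KO and 9 in WT.

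The NPM1 lists of infarcted and sham hearts ask where NPM1 lies in cardiac macrophages after injury. A gene-end peak was called in MI only at 8 collagen genes (43.4% of all genes), in sham only at 4 (3.75%) and in both at 2 (7.14%). Of the 13 collagen end peaks in MI, 0 overlapped a sham peak (6.96% of the end peaks of all genes), and of the 7 in sham, 0 overlapped an MI peak (832 of 2379 for all genes). The MI-only genes were Col2a1, Col3a1, Col4a1, Col9a2, Col11a2, Col14a1, Col23a1 and Col26a1, the sham-only genes Col1a1, Col4a2, Col7a1 and Col15a1, and the shared genes Col5a3 and Col18a1, at different places.

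Apart from Col23a1 beside Phykpl (605 bp, fold 5.17, −log10 q 12.0), the MI peaks had folds of at most 3.10. Col2a1 had peaks of 377 bp (fold 3.10, −log10 q 2.46) and 201 bp, Col26a1 one of 288 bp (fold 2.91, −log10 q 1.66) and Col5a3 one of 200 bp (fold 2.58, −log10 q 1.61). At Col3a1 the MI peak of 200 bp (fold 2.48, −log10 q 0.715) overlapped the H3K4me3 peak of the KO list. The weak MI peaks at Col14a1 (−log10 q 0.715) and Col18a1 (−log10 q 0.857) also overlapped H3K4me3 peaks of both genotypes. Col4a1 had its MI peak at the far end (fold 2.73), away from the promoter shared with Col4a2. The MI peaks of Col11a2 near Rxrb (fold 2.32, −log10 q 1.35) and of Col9a2 at its far end (fold 2.77, −log10 q 1.47) overlapped WT H3K4me3 peaks.

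The sham peaks were narrow and few. Col15a1 had the strongest, 432 bp wide at its far end (fold 4.44, −log10 q 3.12), then Col18a1 (fold 3.85, −log10 q 2.34), Col7a1, the anchoring fibril chain of skin (fold 3.93, −log10 q 2.06), Col4a2 (fold 3.81, −log10 q 2.01), Col5a3 (fold 3.69, −log10 q 1.84) and Col1a1 (fold 3.42, −log10 q 1.41). Their summit pileups were 6 to 10 reads over a background of 1.29 to 1.86. Among genes with a strand, 1 collagen gene had a start-site end peak in sham (5.55% of all genes) and 5 a far-end peak (6.53%), while in MI 4 had a start-site end peak (46.3%) and 4 a far-end peak (13.6%). Peak bases summed to 8531 in MI and 3659 in sham, 2.33 times as many, where all genes gave 8.08 times as many and the means over all genes were 429 and 53.1 bases.

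The BMDM lists ask where NPM1 lies after IL-4, which drives macrophages to a reparative state. Culture time was not separated from IL-4 in this pair. A gene-end peak was called with IL-4 only at 8 collagen genes (46.5% of all genes), in untreated cells only at 0 (1.98%) and in both at 1 (4.73%), the gene Col6a2. The IL-4-only genes were Col2a1, Col4a1, Col4a2, Col6a6, Col8a2, Col14a1, Col16a1 and Col23a1. At the Col4a1 and Col4a2 promoter, IL-4 peaks of 200 bp (fold 2.51, −log10 q 1.48) and 368 bp (fold 2.24, −log10 q 0.919) overlapped the H3K4me3 peak of the KO list. Col6a2 had an IL-4 peak of 535 bp (fold 2.73, −log10 q 1.85) at its start and an untreated peak of 200 bp (fold 3.28, −log10 q 1.28) at its far end. Col6a6 had the next strongest IL-4 peak after Col23a1 (fold 3.28, −log10 q 3.16), at its far end.

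Col23a1 with IL-4 had the Phykpl-side peak again (768 bp, fold 3.60, −log10 q 6.20), and Col8a2 had one of 493 bp past its start (fold 2.70, −log10 q 2.33). Col16a1 (fold 2.76, −log10 q 1.91), Col2a1 (fold 2.59, −log10 q 1.63) and Col14a1 (fold 2.51, −log10 q 1.23) followed. At the start-site end 4 collagen genes had an IL-4 peak (46.5% of all genes) and 0 an untreated peak (4.77%), and at the far end 3 had an IL-4 peak (14.6%) and 1 an untreated peak (2.80%). Peak bases summed to 7669 with IL-4 and 635 untreated, means of 174 and 14.4 bases, where all genes had means of 440 and 32.4. Of the 13 end peaks in MI, 4 overlapped an IL-4 peak (74.3% of the end peaks of all genes), and of the 10 with IL-4, 5 overlapped an MI peak (72.8%).

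By class, fibrillar chains had NPM1 peaks at 4 of 11 genes in MI and 2 in sham, and at 1 with IL-4 and 0 untreated. Basement membrane chains had them at 1 of 6 in MI and 1 in sham, and at 2 with IL-4 and 0 untreated. Other chains had them at 5 of 27 in MI and 3 in sham, and at 6 with IL-4 and 1 untreated. In H3K4me3 the shares were 54.5% in KO and 27.3% in WT for fibrillar chains, 33.3% in both for basement membrane chains, and 40.7% in KO and 25.9% in WT for other chains. The basement membrane genes called with IL-4, in KO and in WT were Col4a1 and Col4a2, each time through peaks at their shared promoter, which is counted for both. With collagen genes that share a peak or window counted once, 8 were called with IL-4, 18 in KO and 11 in WT. No share over all genes was computed that way. No class reached the share of all genes in the H3K4me3 lists or in the MI and IL-4 lists. The classes hold 6 to 27 genes. In them 1 gene is 16.7% of the basement membrane chains, 9.09% of the fibrillar chains and 3.70% of the other chains.

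**Figure D4:**
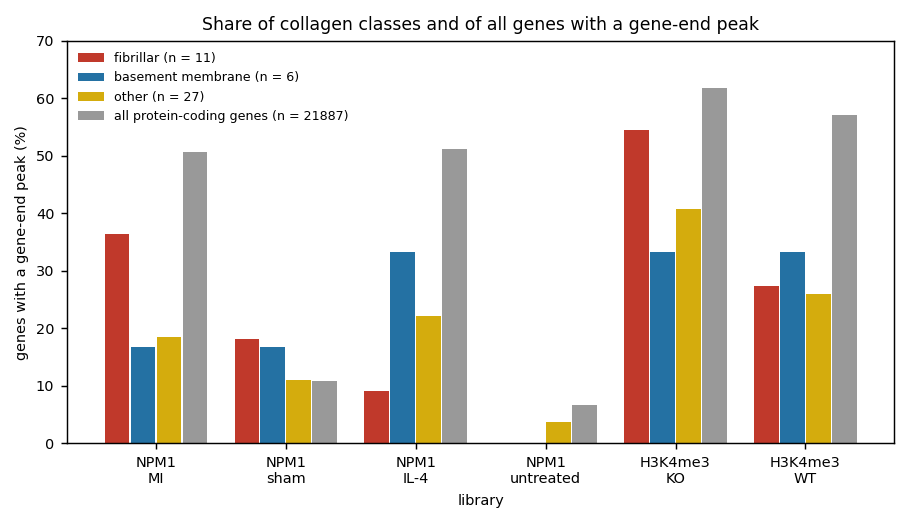
Percent of fibrillar (11), basement membrane (6) and other (27) collagen genes, and of all 21887 protein-coding genes, with a gene-end peak in each of the 6 libraries (1 library per group). The grey bars of all genes stand above every collagen class in NPM1 MI, NPM1 IL-4, H3K4me3 KO and H3K4me3 WT. In NPM1 sham the grey bar stands at 10.9%. The sham bars of the classes rest on few genes: 11.1% for other chains (3 genes), 16.7% for basement membrane (1) and 18.2% for fibrillar (2).

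Collagen promoters with an H3K4me3 peak were richer in CpG than those without. CpG observed over expected is the number of CpGs relative to that expected from the C and G content. In the 300 bases from 250 before to 50 after each listed start, its median was 0.59 for the 19 collagen promoters with a KO peak within 1 kb and 0.34 for the 19 without. Over all promoters the medians were 0.76 with a KO peak and 0.20 without. At ratios of 0.6 and over, 9 of 11 collagen promoters had a KO peak (81.8%; 93.0% of all promoters) and 6 had a WT peak (54.5%; 87.0% of all). In the same CpG-rich group an NPM1 peak was called at 3 of 11 collagen promoters in MI (27.3%; 73.9% of all) and at 3 with IL-4 (27.3%; 73.0% of all). From 0.3 to 0.6, 7 of 15 had a KO peak (46.7%; 56.6% of all) and 2 a WT peak (13.3%; 47.3% of all). Under 0.3, 3 of 12 had a KO peak (25.0%; 18.9% of all) and 1 a WT peak (8.33%; 17.1% of all), and NPM1 peaks were called at 2 in MI (16.7%; 16.4% of all) and 1 with IL-4 (8.33%; 1227 of 6798 over all). Col3a1 stands out as a promoter with a KO peak at a ratio of 0.00, and Col13a1, a transmembrane chain, as one with no peak at 0.84.

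**Figure D5:**
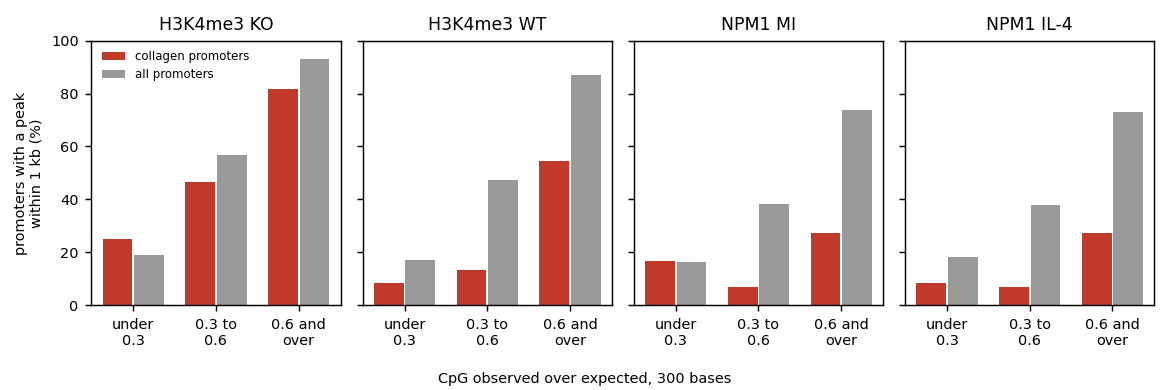
Percent of 38 collagen promoters (red) and of all 21263 listed promoters (grey) with a peak within 1 kb of the start, in 3 steps of CpG observed over expected, for H3K4me3 KO, H3K4me3 WT, NPM1 MI and NPM1 IL-4. In the step of 0.6 and over, collagen promoters reach 81.8% in KO, 54.5% in WT and 27.3% in each NPM1 list, against 93.0%, 87.0%, 73.9% and 73.0% of all promoters.

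Motif letters were searched on both strands of the same 300 bases. GGGCGG (the GC box) was in 60.5% of collagen promoters and 46.2% of all promoters, in 78.9% of collagen promoters with a KO peak (65.0% of all such promoters) and in 42.1% of those without (15.6% of all such promoters). TATAAA (the TATA box) was in 13.2% of collagen promoters and 12.6% of all, and CCAAT (the CCAAT box) in 34.2% and 38.2%. In the printed stretch of Col10a1, TATAAA stands 32 bases before the start. The Col1a2 stretch holds GGGCGG at 205 and 188 bases and CCAAT at 109 bases before the start.

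Genes whose products make, process, bind or break down collagen were read beside the chain genes. The shares of all protein-coding genes with a gene-end peak, against which these counts stand, were 61.8% in H3K4me3 KO and 57.1% in WT, 50.6% in NPM1 MI and 10.9% in sham, and 51.2% with IL-4 and 6.71% untreated. Of 22 genes of collagen biosynthesis, 19 had an H3K4me3 peak in KO and 17 in WT, among them P4ha1, which hydroxylates prolines of the chains (fold 9.15 in KO and 9.61 in WT). Serpinh1, the collagen chaperone, and P3h2, a prolyl 3-hydroxylase, were the 2 called in KO only, with folds of 4.43 and 4.87. NPM1 peaks were called at 18 of the 22 in MI and 2 in sham, and at 15 with IL-4 and 0 untreated. P3h4 and Fkbp10 had equal values for their strongest peak in MI, IL-4, KO and WT (fold 6.45, −log10 q 28.2 in KO). A single peak may therefore count for both genes. P4ha1 had NPM1 folds of 9.09 in MI and 9.42 with IL-4.

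Of 14 genes of processing and crosslinking, 12 had an H3K4me3 peak in KO (61.8% of all genes) and 8 in WT (57.1%), and NPM1 peaks were called at 7 in MI and 4 in sham, and at 7 with IL-4 and 0 untreated. Loxl3, a crosslinking oxidase (−log10 q 113 in KO and 16.2 in WT), and Bmp1, which trims procollagen (81.1 in KO and 16.4 in WT), were strongest. Of 14 degradation genes, 13 had a KO peak (61.8% of all genes) and 6 a WT peak (57.1%), and NPM1 peaks were called at 8 in MI (50.6%) and 0 in sham (10.9%), and at 11 with IL-4 and 1 untreated. Ctsb, a lysosomal cathepsin, had H3K4me3 −log10 q of 147 in KO and 20.6 in WT and NPM1 −log10 q of 27.6 in MI and 39.0 with IL-4. Of 13 receptor and uptake genes, 9 had a KO peak and 6 a WT peak, with NPM1 peaks at 6 in MI and 0 in sham, and at 6 with IL-4 and 1 untreated. Itgb1, the common chain of the collagen-binding integrins, had −log10 q of 103 in KO and 8.70 in WT, and its partner Itga1 had 74.6 in KO and 8.02 in WT.

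Of 10 fibril-associated genes, 5 had a KO peak (61.8% of all genes) and 2 a WT peak (57.1%), with NPM1 peaks at 3 in MI and 1 in sham, and at 3 with IL-4 and 0 untreated. Fn1, fibronectin, was marked in both (fold 10.3 in KO and 6.47 in WT), as was Thbs1 (5.15 and 3.77), while Postn (fold 6.88), Sparc (5.16) and Bgn (3.44) were marked in KO only. Dcn and Lum, proteoglycans of fibroblasts that space collagen fibrils, had no gene-end peak in any of the 6 lists.

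Markers of other heart cells were read beside the collagen genes. Of 12 fibroblast markers that are not collagens, 6 had an H3K4me3 gene-end peak in KO (61.8% of all genes) and 1 in WT (57.1%), and the covered bases per gene ranged from 0 to 1250 in KO and from 0 to 349 in WT, with sums of 4828 and 349. The 6 with a KO peak were Wif1, Postn, Ddr2, Cthrc1, Tcf21 and Mfap5, and the 6 without were Pdgfra, Dcn, Lum, Dpt, Tnc and Thy1. Of 10 mural cell markers, 6 had a peak in KO and 2 in WT (sums of 4807 and 1433 bases, per gene 0 to 1086 and 0 to 647). Endothelial markers had 6 of 12 in KO and 5 of 12 in WT, cardiomyocyte markers 1 of 12 in each, and genes silent in heart and macrophages 1 of 12 in KO and 3 of 12 in WT. In the NPM1 lists the fibroblast markers had 2 of 12 in MI and 1 in sham, and 5 with IL-4 and 0 untreated. The macrophage markers had 12 of 12 in MI and 3 in sham, and 11 with IL-4 and 0 untreated. The genes silent in heart and macrophages had 3 of 12 in MI and 1 in sham, and 6 with IL-4 and 0 untreated. Over all genes the shares were 50.6% in MI, 10.9% in sham, 51.2% with IL-4 and 6.71% untreated. The part of other cells in the collagen peaks was not tested.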

How the data were processed

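The 6 peak lists come from CUT&Tag libraries, 1 per group; the other 4 of the series' 10 libraries were not analysed here. Per the submitters' processing notes, the tools were bcl2fastq 2.17, Bowtie2, MACS2 2.2.7.1 and deepTools, with build mm10; settings: not given in the sources used here. In the deposited narrowPeak lists the authors give a score, a fold enrichment at the summit, and −log10 p and −log10 q for each peak. Every list reached down to weak peaks: the smallest −log10 p was 2.01, every peak was at least 200 bp wide, and 5.01% to 27.8% of a list had q above 0.05.

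Genes, start sites and promoters came from RefSeq tables (GRCm38.p6, 21887 protein-coding genes); exons were not used. Strand and start site were listed for 35 of 44 collagen genes, and sequences are not shown for Col12a1, Col14a1, Col1a1, Col22a1, Col26a1, Col2a1, Col4a3, Col5a2 and Col9a3. Peaks within 1 kb of a gene end and bases covered within 2 kb were counted, with code tested on simulated peaks and genes. Summit pileup and local background were solved from fold and p (tolerance 0.001), and 95% exact Poisson intervals cover counting error only; the genome background is the commonest local background of a list. With 1 library per group, no test was run. Members, classes and the lists of pathway and marker genes were chosen with earlier results of these data known. The naming rule took 12 collagen genes of the main scar, fibril and basement membrane types, every collagen gene with a peak of −log10 q of 5 or more or a sham or untreated peak, and up to 4 genes per pathway list by −log10 q. The other collagen genes are named to account for each, and Serpinh1, P3h2 and Bgn after their values were seen. Alternatives were stricter peak limits, equal list lengths, other windows and other class borders. Python 3.11.15, numpy 2.4.6, pandas 2.3.3, scipy 1.17.1 and matplotlib 3.10.9 were used.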

Additional observations from a re-analysis of the deposited data

How the results depend on the processing

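Of 180 alternative values for 36 results, 90 stayed within 1.5 times the reported value and 90 did not. None has a test, and the cause of the shifts was not tested beyond what each alternative leaves out. More collagen genes were called in H3K4me3 KO than in WT under every limit and window tried. All genes also had the higher share in KO, 61.8% against 57.1% in the main setting. With −log10 q of 5 or more their shares were 57.0% and 42.8%. For the remaining peak limits and gene-end windows no share over all genes was computed. Counts are of collagen genes, and sums are of covered bases.

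With −log10 q of 5 or more, counts were 1 (MI), 0 (sham), 1 (IL-4), 0 (untreated), 11 (KO) and 1 (WT), with 1 in MI only, 0 in sham only, 1 in IL-4 only and 0 in WT only. Sums were then 605 (MI), 0 (sham), 768 (IL-4), 0 (untreated) and 1681 (WT). Fibrillar counts were 0 in MI, sham, IL-4 and WT, basement membrane counts 0 in the same lists, and other chains had 1 (MI), 0 (sham), 1 (IL-4), 0 (untreated), 5 (KO) and 1 (WT). With q of 0.05 or less, 6 were called in MI, 0 in untreated and 5 in MI only. With fold of 4 or more, counts were 1 (MI), 1 (sham), 0 (IL-4), 0 (untreated), 10 (KO) and 1 (WT), with 1 in MI only, 1 in sham only, 0 in IL-4 only and 0 in WT only, and sums 605 (MI), 432 (sham), 0 (IL-4), 235 (untreated), 12585 (KO) and 1384 (WT).

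With each list cut to its 52977 strongest peaks, counts were 4 (MI), 2 (IL-4) and 7 (WT), with 3 in MI only, 2 in IL-4 only, 1 in untreated only and 1 in WT only, and sums 4985 (MI), 2561 (IL-4) and 5720 (WT). MI then had fewer collagen genes than sham, 4 against 6. With a 2.5 kb window, counts were 18 (MI), 12 (sham), 16 (IL-4), 4 (untreated) and 21 (WT), with 15 in IL-4 only and 3 in untreated only. With 500 bp, 0 were called in untreated and 5 in MI only. At listed start sites, an alternative chosen after seeing the data, counts were 6 (MI), 1 (sham), 4 (IL-4) and 0 (untreated).

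Sums within 1 kb were 3586 (MI), 1632 (sham), 3289 (IL-4), 200 (untreated) and 5259 (WT). Sums within 5 kb were 16825 (MI), 7153 (sham), 15203 (IL-4), 1798 (untreated) and 15913 (WT). At the start-site end alone they were 3182 (MI), 1292 (sham), 4018 (IL-4), 0 (untreated) and 5158 (WT). With Col15a1 and Col18a1 counted as basement membrane chains, that class had 2 (MI), 3 (sham) and 4 (KO), and other chains had 1 in sham. No paired analysis was possible because each group has 1 library. Background depth differed within the NPM1 pairs, at 3.03 reads in MI and 1.29 in sham, and 4.18 with IL-4 and 1.31 untreated.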

Other observations

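Away from the gene ends, collagen genes are long, with a median of 114 kb where all genes have 17.2 kb. They overlapped 218 NPM1 peaks in MI and 140 in sham, 245 with IL-4 and 96 untreated, and 101 H3K4me3 peaks in KO and 142 in WT. Per 100 kb that was 4.0 peaks in MI and 2.57 in sham (4.53 and 2.40 for all genes), 4.50 peaks with IL-4 and 1.76 untreated (5.03 and 1.70 for all genes), and 1.86 in KO and 2.61 in WT (3.75 and 4.39 for all genes).

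Inside 6 collagen genes (Col4a4, Col4a6, Col18a1, Col19a1, Col23a1 and Col26a1) a peak recurred in all 6 lists, whichever antibody was used. These were 2.53% to 9.09% of the inside peaks of collagen genes, where 1.99% to 3.97% of the whole lists recurred. The Col23a1 peak (chr11:51455485-51455964 in MI) had folds of 18.5 in MI and 20.9 in sham, 21.0 with IL-4 and 15.2 untreated, and 21.2 in KO and 16.4 in WT, above every gene-end peak of a collagen gene. The Col4a6 peak (chrX:141276469-141276789 in MI) had 8.68 in MI and 20.5 in sham, 12.0 with IL-4 and 9.94 untreated, and 10.3 in KO and 11.0 in WT. The Col4a4 peak (chr1:82477340-82478048 in MI) had 9.78 in MI and 12.4 in sham, 11.6 with IL-4 and 7.37 untreated, and 4.01 in KO and 8.39 in WT.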
